A study of Rattus norvegicus with 6 samples.

Results

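Chemokine-high microglia are hippocampal microglia of the rat that carried many transcripts of Tnf, Cxcl2 and Ccl2. They were chosen by a rule on unique molecular identifiers (UMIs), each of which stands for 1 captured transcript. A barcode needed at least 1000 UMIs, of which at most 20% were mitochondrial, and at least 3 UMIs of the microglial genes P2ry12 and Tmem119 together. It could hold at most 1 UMI of Clec7a, at most 2 UMIs per 1000 of the astrocyte genes Gja1, Aqp4 and Slc1a3, and at most 1 UMI of the cycling genes Mki67, Top2a and Cenpf. The barcodes that passed these gates are called gated microglia here. Those with at least 1 UMI of Tnf, Cxcl2 and Ccl2 per 1000 UMIs were taken as chemokine high. The rule kept 3077 of 58078 barcodes, or 5.30% of all barcodes and 14.4% of 21364 gated microglia. The other 18287 gated microglia, below the threshold, are the cells they are set against.

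The study took the hippocampus of 3 irradiated rats, 2 months after 20 Gy to the whole brain, and of 3 control rats, all labelled male. Neither strain nor age is given in the sources used here. Tissue was digested with enzymes, depleted of red and dead cells and run on the Chromium 3′ v3 droplet platform with no sorting. The design asks how single cells of the hippocampus differ after irradiation.

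The barcodes fall into 6 libraries, numbered by their suffix. Nothing in the sources used here ties a library to an irradiated or a control rat, so 0 comparisons by irradiation were made. Each library's value is given, or the range over the 6, without a group and without a test. Cells of 1 library share a barcode suffix and are not replicates. Whether a suffix stands for 1 animal or 1 droplet run is not given in the sources used here.

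Microglia are the resident macrophages of the brain and keep watch over it with fine processes. Danger or microbial signals, read by Toll-like and cytokine receptors, free the transcription factor NF-κB from its inhibitor IκB, and NF-κB then turns on cytokines, chemokines and its own inhibitors. TNF, the product of Tnf, is an inflammatory cytokine that activates endothelium and glia. CCL2 draws monocytes through the receptor CCR2, and CXCL2 draws neutrophils through CXCR2. These transcripts are short-lived, and they are also switched on by handling and warm digestion of tissue.

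Library 3 stood apart from the others and held 70.7% of the chemokine-high microglia. The members numbered 267, 364, 2175, 52, 118 and 101 in libraries 1 to 6. All 6 libraries together held 329205505 UMIs. The chemokine-high cells had median depths of 5051 to 9692 UMIs over libraries, and the microglia below the threshold had 4329 to 7691. Within each library the chemokine-high cells were the deeper ones. Their median mitochondrial share was 3.72% to 7.13%, against 3.81% to 7.46% below the threshold, and both were lowest in library 3. Barcode sequences were shared between libraries for 825 of 58078 barcodes. Of the members, 35 carried such a sequence, and 0 sequences were held by members of different libraries. No doublet caller was run. The count of 2 or more cells in 1 droplet was limited only by the gates, and an alternative without the 8% of barcodes with the most UMIs was computed.

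The label of the cells was checked against their markers. P2ry12, a purinergic receptor of resting microglia, stood at 623, 732, 1007, 395, 578 and 437 CPM (counts per 1000000 UMIs) in chemokine-high microglia of libraries 1 to 6. It stood at 710.3, 805, 1255, 592, 696 and 575 CPM in microglia below the threshold. Tmem119, a membrane protein of microglia, stood at 495 to 1387 CPM in chemokine-high cells and 596 to 1289 CPM below the threshold. Both genes were used by the rule, so their presence is given as a description. Of the microglial genes it did not use, the fractalkine receptor Cx3cr1 stood at 1192 to 2466 CPM in chemokine-high cells and 1557 to 2697 CPM below the threshold. Sall1, a transcription factor that maintains microglial identity, stood at 138 to 257 CPM in chemokine-high cells and 179.7 to 257 CPM below it. The chemokine-high cells thus held these microglial genes in every library. Other genes of the microglial identity list were near or at 0 in both classes summed over libraries. Siglech, Gpr165 and Olfml3 stood at 0, 0 and 2.35 CPM in chemokine-high cells and 0.00940, 0 and 2.12 CPM below the threshold.

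The 3 genes that chose the members differed in how much each contributed. Tnf stood at 793, 944, 1036, 673, 757 and 1256 CPM in chemokine-high microglia of libraries 1 to 6, against 87.7, 90.8, 181, 71.5, 143 and 141 CPM below the threshold. Cxcl2 stood at 889.9, 584, 1617, 1472, 1232 and 1753 CPM in the chemokine-high cells, against 18.2, 15.7, 48.2, 23.6, 44.1 and 59.3 CPM below. The chemokine-high level of Cxcl2 was highest in library 6 and lowest in library 2. Ccl2 stood at 360.3, 312, 789, 136, 388 and 169.8 CPM in the chemokine-high cells and 12.1, 12.1, 37.8, 7.999, 20.4 and 6.995 CPM below, with library 3 highest in both classes. These differences follow from the selection and carry no test. The members held 76.8% of all UMIs of these genes in gated microglia, and 59.3% of the cells below the threshold held 0.

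Free RNA in the droplets gives a background of UMIs in cells that do not make a transcript. It was gauged in 7676 astrocyte barcodes, with at least 5 UMIs per 1000 of the astrocyte genes and 0 UMIs of P2ry12, Tmem119 and Clec7a, after every barcode was thinned at random to 1000 UMIs. Tnf had a UMI in 42.3% to 62.4% of chemokine-high microglia over libraries, in 5.24% to 14.5% of microglia below the threshold, and in 0% to 2.28% of astrocyte barcodes. Cxcl2 had one in 20.9% to 51.5% of the chemokine-high cells, in 1.26% to 6.35% of cells below the threshold and in 0% to 3.93% of astrocyte barcodes. For Ccl2 the shares were 7.69% to 28.2%, 0% to 3.30% and 0% to 1.30%, in the same order. Median depths before thinning were 5468 UMIs in chemokine-high cells, 5127 in cells below the threshold and 6730 in astrocyte barcodes. Before thinning, 82.8% of chemokine-high cells, 32.2% of cells below the threshold and 5.16% of astrocyte barcodes had a UMI of Tnf. The high shares in chemokine-high cells follow from the selection. The share of microglia below the threshold exceeded that of the astrocyte barcodes of the same library in 6 of 6 libraries for Tnf and Cxcl2 and in 5 of 6 for Ccl2, which had 0% below the threshold and 0.190% of astrocyte barcodes in library 6. Asking for 0 UMIs of microglial genes favours astrocyte barcodes with little free microglial RNA, so their shares may understate the background. Whether astrocytes made these transcripts themselves was not tested.

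Chemokine-high cells made up very different shares of the microglia in the 6 libraries. The share was 29.3% in library 3 (95% exact binomial interval 28.3% to 30.4%) and 24.3% in library 6 (20.2% to 28.7%). It was 9.89% in library 5, 5.90% in library 1, 5.51% in library 2 and 4.34% in library 4, with intervals of 8.26% to 11.7%, 5.23% to 6.62%, 4.97% to 6.08% and 3.26% to 5.65%. The intervals of libraries 3 and 6 overlap, and both lie above those of the other 4. Such intervals cover counting error only, not the spread between animals. With every cell thinned to 1000 UMIs, at least 2 UMIs of the 3 genes were found in 22.1% of gated microglia of library 3 and 18.3% of library 6, and in 3.45% to 8.47% in the other libraries. Libraries 3 and 6 thus stood above the rest at equal depth as well. Without library 3 the share over the other libraries was 6.47%. Libraries 4, 5 and 6 held far fewer gated microglia (1198, 1193 and 416) than libraries 1, 2 and 3 (4529, 6612 and 7416), so library 6 added only 101 members.

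**Figure D1:**
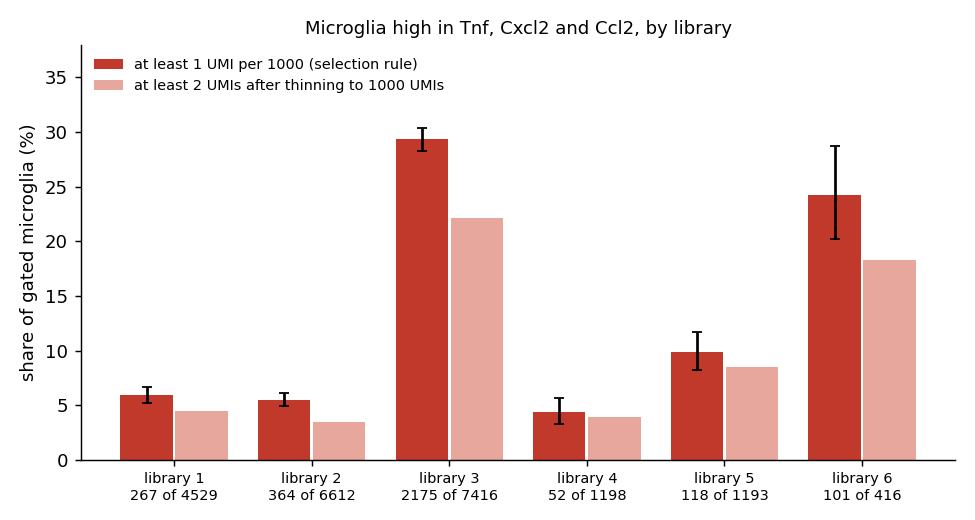
Share of gated microglia, in percent, that were chemokine high in each of the 6 libraries (dark bars, with 95% exact binomial intervals), and share with at least 2 UMIs of Tnf, Cxcl2 and Ccl2 after thinning each cell to 1000 UMIs (light bars). Libraries 3 and 6 stand at 29.3% and 24.3%, above 4.34% to 9.89% in the others, and numbers under the bars give chemokine-high cells of all gated microglia.

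The microglia below the threshold differed between libraries too. In library 3 they held 181 CPM of Tnf, 651 CPM of Cd83 and 3841 CPM of Fos, each the highest of the 6 libraries, and the lowest mitochondrial share. The 23 measured immediate early genes together took 2.35% of the UMIs of these cells in library 3 and 0.919% to 1.70% in the other libraries, with 0.964% in library 6. In chemokine-high cells they took 4.06% in library 3, 3.03% in library 6 and 2.13% to 2.87% in the others. The part of tissue handling in the shares was not tested.

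The members were a mixture of cells holding different combinations of the 3 transcripts. Over all members, 82.8% held Tnf, 56.7% held Cxcl2 and 39.2% held Ccl2. Tnf with Cxcl2 but no Ccl2 was the most frequent combination, at 29.7%, followed by Tnf alone at 22.4%, Tnf with Ccl2 at 15.7% and all 3 at 15.0%. In library 2, Tnf alone made up 45.3% of members and all 3 genes 3.30%. In library 6, Tnf with Cxcl2 made up 51.5%, and all 3 genes 19.8%. The share with Ccl2 was 44.6% in library 3 and 21.2% to 31.4% elsewhere. These shares were not corrected for depth. The most abundant of the 3 was Tnf in 42.6% of members, Cxcl2 in 36.5% and Ccl2 in 18.9%, with 2.01% tied.

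**Figure D2:**
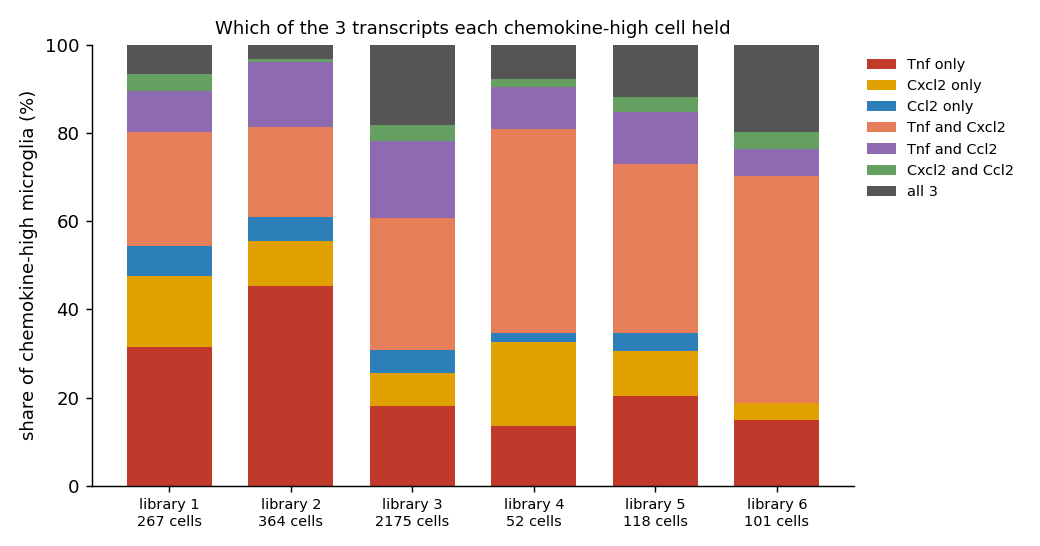
Share of chemokine-high microglia, in percent, by which of Tnf, Cxcl2 and Ccl2 had at least 1 UMI, as stacked bars for the 6 libraries with the number of cells below each. Tnf alone takes 45.3% in library 2, while Tnf with Cxcl2 takes 51.5% in library 6.

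Cxcl2 and Ccl2 were more frequent in gated microglia with a Tnf UMI than in those without one, in all 6 libraries. After thinning to 1000 UMIs, Cxcl2 was found in 22.8% of library 3 gated microglia with a Tnf UMI, against 13.1% of those without. In library 6 the shares were 30.7% with Tnf and 9.21% without. In libraries 1, 2, 4 and 5 they were 6.04%, 3.60%, 5.26% and 10.6% with Tnf, against 3.21%, 2.17%, 3.54% and 6.45% without. Ccl2 was found in 14.4% of library 3 gated microglia with Tnf, against 9.04% of those without, and it was likewise more frequent with Tnf in the other 5 libraries. Ccl2 was also more frequent with Cxcl2 than without it in libraries 1, 2, 3, 4 and 6, at 14.5% against 9.68% in library 3. Outside library 3, each library had only 3 or 4 cells with both. Counts with Tnf were small in library 4 too, at 5 cells with Cxcl2 and 3 with Ccl2. In library 5, Ccl2 was found in 3.57% of cells with Cxcl2 and 3.61% of those without, on only 3 cells with both. Most cells with a Tnf UMI thus held neither of the other transcripts at this depth, in every library.

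The threshold cuts through a continuous range of levels. Members spread from 1 UMI per 1000 to 23.4 per 1000, with a median of 2.10, and 23.0% lay at 4 per 1000 or more. The 548 cells just inside, at 1 to 1.25 per 1000, held 754 CPM of Tnf, 246 CPM of Cxcl2 and 119.6 CPM of Ccl2. The 770 cells just outside, at 0.75 to 1 per 1000, held 601 CPM of Tnf, 167 CPM of Cxcl2 and 97.1 CPM of Ccl2. Ccl3 stood at 2499.6 CPM just inside and 2069.6 CPM just outside, and Cd83 at 909 CPM and 718 CPM in the same order. The cells on both sides of the threshold were thus close to each other.

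Outside the 3 genes, 41 genes were called higher in chemokine-high microglia and 0 were called lower. A gene was called when its log2 ratio, taken within each library with 10 CPM added to both classes, had a median of at least 1 over the 6 libraries and was above 0 in each (lower: at most -1 and below 0 in each). Of 7700 genes tested, 0.532% were called higher and 0% lower. The median log2 ratio of all tested genes was -0.06, and 4.88% of them were above 0 and 14.7% below 0 in all 6 libraries. The count of higher genes was 62 at a threshold of 2 per 1000, 10 when the members were chosen on cells thinned to 1000 UMIs, and 78 against microglia with 0 UMIs of the 3 genes. Because the contrast that chose the cells is the one described, these calls carry no p-value. Of the 41, 35 belong to the gene lists described below, 5 others have a symbol and 1 has an identifier only. The lists were chosen with earlier results of these data known, and the share of all tested genes in them was not computed. The 35 are thus a description only. The ratios were not equal over libraries. Library 6 had the highest ratio for 29 of the 41 genes and library 4 for 11, and library 5 had the lowest for 24. For 15 of the 41, every library's chemokine-high level lay above every library's level below the threshold, as it did for 0.597% of all tested genes. For the other 26, the cells below the threshold of some library, such as library 3 for Ccl3, reached the chemokine-high level of another.

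The CC chemokines Ccl3 and Ccl4 were among the more abundant of the called transcripts. Ccl3, which encodes MIP-1α, a ligand of CCR1, stood at 1316, 1525, 4297, 1254, 1800.0 and 3543 CPM in chemokine-high microglia of libraries 1 to 6. It stood at 465, 564, 2098, 339, 925 and 792 CPM in microglia below the threshold. Within each library the chemokine-high cells had more, with a median log2 ratio of 1.45 (0.95 to 2.15), but the cells below the threshold in library 3 held more than the chemokine-high cells of libraries 1, 2, 4 and 5. Ccl4, which encodes MIP-1β, a related attractant of macrophages and T cells, stood at 2104, 2296, 6260.4, 2132, 4126 and 5799.8 CPM in the chemokine-high cells and 747, 868, 3056, 747, 1978 and 1401 CPM below. Its median log2 ratio was 1.44 (1.03 to 2.04). Ccrl2, a chemokine and chemerin-binding receptor that does not signal, had a ratio of 1.40 (0.85 to 2.42). Its chemokine-high levels of 135 to 331 CPM lay above all levels of 46.4 to 109 CPM below the threshold.

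Ccl5 had ratios below 0 and was not called. It encodes RANTES, a chemokine of T cells and activated macrophages, and stood at 4.17, 3.48, 70.0, 5.75, 12.7 and 7.34 CPM in chemokine-high microglia, against 11.9, 12.6, 141, 28.3, 117 and 7.73 CPM below the threshold. The log2 ratio was below 0 in all 6 libraries, with a median of -0.83 (-2.48 to -0.03), and was close to 0 in library 6. The level was highest in library 3 in the chemokine-high class. Other chemokine-high counts of Ccl5 were small, with 3 UMIs in library 4 and 11 in library 5. A Ccl5 UMI was found in 1.50%, 2.20%, 15.4%, 5.77%, 8.47% and 7.92% of chemokine-high cells of libraries 1 to 6. Below the threshold the shares were 2.77%, 2.14%, 15.6%, 6.02%, 7.26% and 5.71%. The share was thus higher in the chemokine-high cells of libraries 2, 5 and 6, and lower in those of libraries 1, 3 and 4. Of the 11 measured genes in the CC list, 4 could be tested and 3 were called higher, where 0.532% of all tested genes were. The median log2 ratio was 1.42, against -0.06 for all genes.

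**Figure D3:**
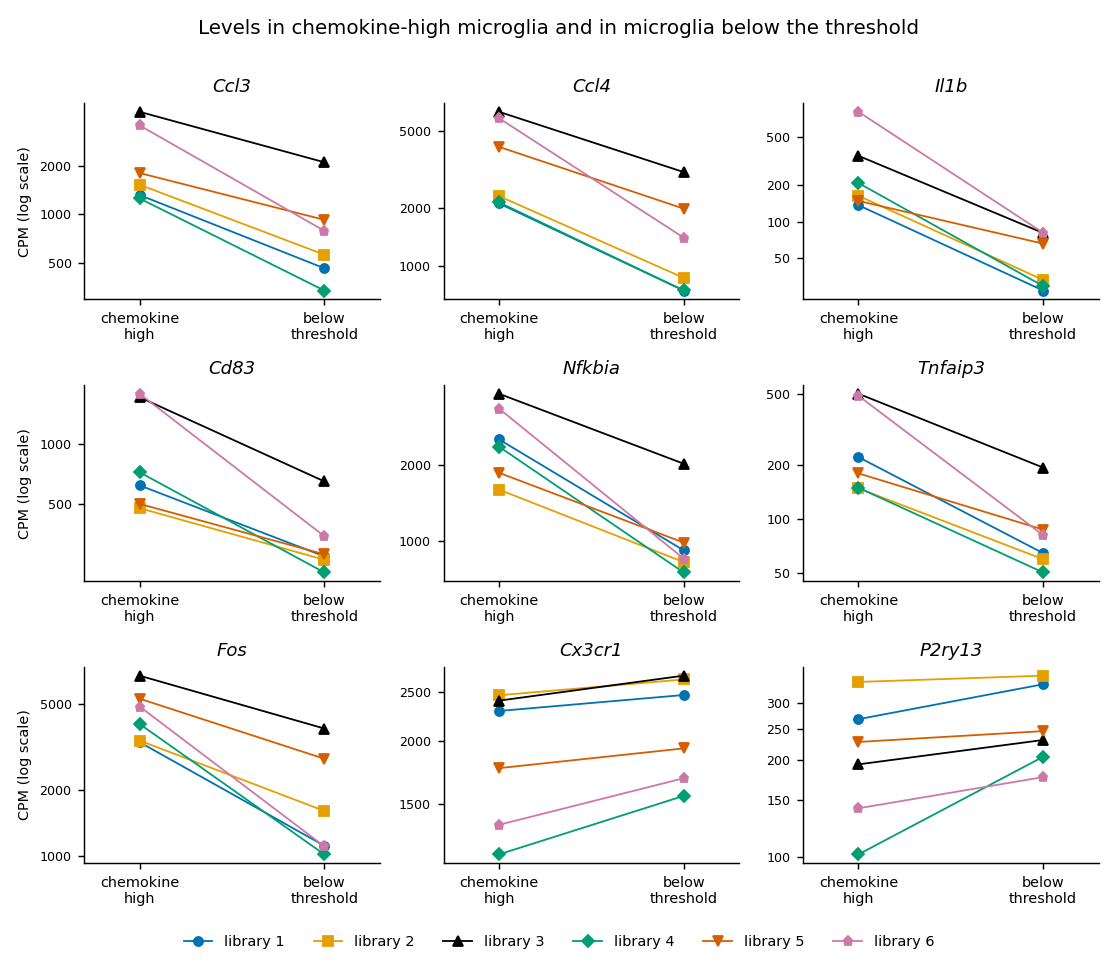
CPM on a log scale in chemokine-high microglia (left) and in microglia below the threshold (right) for 9 genes, with 1 line for each of the 6 libraries. Every line falls to the right for Ccl3, Ccl4, Il1b, Cd83, Nfkbia, Tnfaip3 and Fos, and climbs for Cx3cr1 and P2ry13, in all 6 libraries.

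Il1b had the highest median ratio of all tested genes. It encodes interleukin-1β, a pyrogenic cytokine released after cleavage by caspase-1, and stood at 137, 164, 349.7, 209, 149 and 805 CPM in chemokine-high microglia of libraries 1 to 6. It stood at 27.3, 33.3, 81.1, 29.7, 66.2 and 81.4 CPM in microglia below the threshold, and the 2 ranges did not overlap. The median log2 ratio was 1.99 (1.06 to 3.16), and with 1 CPM added in place of 10 it was 2.28, below that of Cxcl1 at 2.73. Summed over all libraries, most of whose members are from library 3, Il1b stood at 316 CPM in chemokine-high cells (95% exact Poisson interval 308 to 324) and 45.4 CPM below the threshold (44.1 to 46.7). An Il1b UMI was found in 72.3% of members in library 6, 39.6% in library 3 and 17.6% to 32.7% in the others, against 6.36% to 22.9% below the threshold. Il1a, which encodes interleukin-1α, stood at 105 to 256 CPM in the chemokine-high cells and 41.4 to 65.7 CPM below, with a log2 ratio of 1.30 (0.92 to 2.21). Its ranges did not overlap either.

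The other tested cytokines were not called. Tnfsf9, the ligand of the costimulator 4-1BB, had a median log2 ratio of 0.89 and Osm, which encodes oncostatin M, 0.85. Both were above 0 in all libraries and neither was called. Csf1, a growth factor of microglia, had 0.48, and Il6 had 0.37 with levels of 40.4 to 89.4 CPM in chemokine-high cells and 22.3 to 63.6 CPM below the threshold. Il18 had a median of -0.10 and was below 0 in all 6 libraries. Of 9 tested cytokines, 2 were called higher, 6 were above 0 in all libraries and the median was 0.48. The shares over all tested genes were 0.532% called higher and 4.88% above 0 in all libraries.

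Among CXC chemokines, Cxcl1, a neighbour of Cxcl2 and also a neutrophil attractant, was called. It stood at 26.0, 15.7, 58.6, 234, 45.0 and 156 CPM in chemokine-high microglia, against 2.91, 0.732, 8.38, 11.4, 10.9 and 25.4 CPM below the threshold, with a median log2 ratio of 1.69 (1.26 to 3.51). Cxcl1 UMIs were found in only 8, 4, 95, 16, 11 and 18 members of libraries 1 to 6. That was 1.10% to 30.8% of members, against 0.336% to 15.2% of cells below the threshold. In library 6 the shares were close, at 17.8% and 15.2%. The tenth of members with the most Cxcl1 held at least 86.1% of its UMIs in each library. With Cxcl2 taken out of the selection, the median ratio of Cxcl1 was 0.21. It was 2.25 with Tnf taken out and 1.89 with Ccl2 taken out. The 2 genes are related in sequence, and the counting could have split reads between them, so the values of Cxcl1 are uncertain. Cxcl10, an interferon-induced attractant of T cells, stood at 71.9, 443, 94.1, 117, 88.8 and 227 CPM in the chemokine-high cells and 31.9, 56.8, 36.6, 19.9, 92.0 and 90.6 CPM below. Its median log2 ratio of 1.20 was not called, since library 5 had -0.05. Only 7.63% to 14.9% of the members of a library had a Cxcl10 UMI, and the tenth of members with the most Cxcl10 held at least 97.98% of its UMIs in each library. The list of 12 CXC genes had 5 that could be tested and a median of 0.49.

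Of the list of NF-κB subunits and feedback, 4 feedback genes and 1 subunit were called higher. Nfkbia, which encodes IκBα, the inhibitor that holds NF-κB in the cytoplasm, stood at 2534, 1599, 3851, 2371, 1866 and 3361 CPM in chemokine-high microglia of libraries 1 to 6. It stood at 917, 823, 2028, 749, 984 and 849.7 CPM below the threshold, a median log2 ratio of 1.20 (0.92 to 1.97). Tnfaip3, which encodes the ubiquitin-editing enzyme A20 that shuts off signalling, stood at 222, 148, 504, 149.5, 180.0 and 490.0 CPM in chemokine-high cells and 64.3, 59.4, 194, 50.1, 87.1 and 81.0 CPM below, a ratio of 1.37 (0.97 to 2.46). Both were higher within every library, although the cells below the threshold in library 3 matched or passed the chemokine-high cells of other libraries. Nfkbiz and Nfkbid, which encode the nuclear IκB proteins IκBζ and IκBNS, had ratios of 1.59 (1.11 to 2.39) and 1.34 (1.08 to 2.38). Of the subunits, Rel, which encodes c-Rel, was called at 1.03. Rela had 0.22, Nfkb2 0.30, Relb 0.13 and Nfkb1 0.01. Other feedback genes were not called, with 0.54 for Nfkbie, 0.18 for Nfkbib, 0.07 for Tnip1, -0.01 for Tnip2 and -0.09 for the deubiquitinase gene Cyld. Of 15 tested genes 5 were called, where 0.532% of all tested genes were called higher. In all libraries 8 were above 0, against 4.88% of all tested genes, and the median was 0.22.

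Some other targets of NF-κB were called higher. Cd83, a surface protein of mature antigen-presenting cells and named as a marker of these cells, stood at 621, 478, 1717, 723, 502 and 1788 CPM in chemokine-high microglia, against 274, 264, 651, 228, 281 and 346 CPM below the threshold. Its median log2 ratio was 1.27 (0.82 to 2.34), highest in library 6. Icam1, an adhesion molecule for leukocytes, stood at 124 to 253 CPM in the chemokine-high cells and 53.02 to 96.7 CPM below, with a ratio of 1.25. Gadd45b, a stress sensor, had 1.47 (0.14 to 2.10), and Ier3, a survival factor, 1.08. Sod2, the mitochondrial superoxide dismutase, had 0.92 and was not called. The costimulators Cd86, Cd40 and Cd80 had median log2 ratios of 0.08, 0.23 and -0.25, and Nlrp3, the inflammasome sensor, 0.02. Of 15 tested genes 4 were called, where 0.532% of all tested genes were called higher, and the median was 0.23.

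The promoters of the NF-κB targets named above are shown because several hold a match to the κB consensus, the site that NF-κB binds. Sequences are those of RefSeq on the rat build GRCr8, cover the 100 bases before the annotated start of transcription, and run 5′ to 3′ on the gene's strand. Capitals mark bases within a match on either strand. They are Cxcl2 at chr14:17467256-17467355 (minus strand), Cxcl1 at chr14:17479322-17479421 (minus), Nfkbia at chr6:78597073-78597172 (minus), Tnfaip3 at chr1:15543980-15544079 (minus), Nfkbiz at chr11:58251621-58251720 (plus) and Tnf at chr20:3626585-3626684 (plus).
Cxcl2: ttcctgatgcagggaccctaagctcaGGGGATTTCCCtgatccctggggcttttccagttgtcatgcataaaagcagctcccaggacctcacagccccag
Cxcl1: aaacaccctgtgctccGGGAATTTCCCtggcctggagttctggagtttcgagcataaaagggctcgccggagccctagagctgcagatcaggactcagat
Nfkbia: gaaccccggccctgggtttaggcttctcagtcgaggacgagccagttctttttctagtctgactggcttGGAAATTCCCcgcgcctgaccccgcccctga
Tnfaip3: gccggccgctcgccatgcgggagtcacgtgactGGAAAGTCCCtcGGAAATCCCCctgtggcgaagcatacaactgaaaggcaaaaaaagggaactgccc
Nfkbiz: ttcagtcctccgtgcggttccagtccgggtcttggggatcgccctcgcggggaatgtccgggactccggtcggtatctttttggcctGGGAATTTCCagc
Tnf: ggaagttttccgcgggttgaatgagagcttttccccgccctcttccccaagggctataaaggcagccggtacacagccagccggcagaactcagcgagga

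The Cxcl2 and Cxcl1 sites begin 74 and 84 bases before the start and each consists of 2 matches 1 base apart. The Nfkbia site begins 31 bases before the start, the Nfkbiz site 13, and those of Tnfaip3 67 and 55. This window of Tnf held no match, which says only that these letters are not in it. Over the whole 300 bases given per gene (250 before to 50 after the start), a κB match was present in 11 of the 34 called genes with an entry, or 32.4%. It was present in 9.59% of 5832 tested genes with an entry and in 7.60% of all 27457 promoters. The 11 were Cd83, Cxcl1, Irf1, Nfkbia, Nfkbiz, Nr4a1, Phlda1, Pmaip1, Rel, Socs3 and Tnfaip3. The AP-1 motif TGANTCA was present in 14.7% of called genes, 4.42% of tested genes and 7.33% of all promoters. The CArG box, bound by serum response factor, was present in 4 called genes, or 11.8%, namely Dusp5, Egr1, Egr2 and Zfp36, against 1.30% of tested genes and 1.64% of all. The other motifs searched, CRE and the heat shock element, were present in only 2 and 1 called genes, or 5.88% and 2.94%. They were present in 3.31% and 0.446% of tested genes and in 1.91% and 0.736% of all promoters. Both strands were searched, base composition was not matched, and a match is not a site shown to be bound.

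Some genes that end such responses were also called higher. Zfp36 and Zc3h12a encode tristetraprolin and regnase-1, which destroy cytokine mRNAs, and Socs3 encodes an inhibitor of cytokine receptor signalling. Zfp36 stood at 333, 339, 1547, 433, 510.0 and 719 CPM in chemokine-high microglia and 158, 181, 762, 156, 249 and 204 CPM below the threshold, a median log2 ratio of 1.02 (0.87 to 1.77). Zc3h12a had 1.05, Socs3 1.00, and Dusp5, a phosphatase of ERK kinases, 1.07. Of 10 tested genes of mRNA decay and MAPK feedback, 4 were called, 8 were above 0 in all libraries and the median was 0.56. Over all tested genes, 0.532% were called higher and 4.88% were above 0 in all libraries.

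The immediate early genes, which are transcribed within minutes of a stimulus, were higher as a whole list. All 19 tested members were above 0 in every library and 10 were called higher, against 4.88% and 0.532% of all tested genes. The median was 1.00, against -0.06 for all genes. Nr4a1, an orphan nuclear receptor, had the highest ratio of the list, 1.67 (1.01 to 2.18), with 203, 76.6, 378, 119, 65.8 and 162 CPM in chemokine-high microglia and 46.1, 26.3, 130.3, 25.4, 27.6 and 28.0 CPM below the threshold. Atf3, a stress-induced repressor, stood at 1108, 460.3, 1268, 2169.9, 1298 and 1676 CPM in chemokine-high cells and 283, 184, 522, 378, 518 and 366 CPM below, a ratio of 1.62 (1.26 to 2.49). Fos, a subunit of the AP-1 factor, stood at 3325, 3381, 6708, 4029, 5261 and 4844 CPM in chemokine-high cells and 1115, 1610.0, 3841, 1018, 2792 and 1107 CPM below, a ratio of 1.32 (0.80 to 2.12). The Fos level below the threshold in library 3 exceeded the chemokine-high level of libraries 1 and 2. Egr1 had 1.50 with no overlap between classes (1022 to 1804 CPM in chemokine-high cells, 269 to 922 CPM below), Egr2 1.40 and Ier2 1.34. These genes respond to tissue dissociation as well as to signals in the animal, and the part of the digestion was not tested.

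Some heat shock genes were called higher too. Of 13 tested, 12 were above 0 in all libraries and 3 were called higher, against 4.88% and 0.532% of all tested genes. The median was 0.72. Bag3, a cochaperone of HSP70, had 1.41 (1.05 to 1.94), Dnaja1 1.10 and Dnajb1 1.02, both cochaperones of the HSP40 family. Hsp90aa1, an abundant inducible chaperone, stood at 8502, 5477, 3071, 8072, 5459.9 and 6305 CPM in chemokine-high microglia and 3784, 3273, 2102, 2724, 3676 and 2180.3 CPM below the threshold, a ratio of 0.95. Hspb1, a small heat shock protein, stood at 1317 to 2190.1 CPM in chemokine-high cells and 440.3 to 1254 CPM below, a ratio of 0.98. Together the 14 measured heat shock genes took 1.70% to 2.57% of the UMIs of chemokine-high cells and 0.905% to 1.41% of those below the threshold. Heat shock transcripts are also raised by handling of cells, whose part was not tested.

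Targets of p53, the transcription factor that answers DNA damage, were mixed. Cdkn1a, which encodes the cell cycle inhibitor p21, stood at 89.5, 48.7, 78.0, 508, 683 and 1198 CPM in chemokine-high microglia, against 29.6, 19.4, 49.7, 186, 439.5 and 338 CPM below the threshold. Its log2 ratio of 1.16 (0.56 to 1.80) was called, but its level differed more between libraries than between classes, with libraries 4 to 6 above libraries 1 to 3 in both. Pmaip1, which encodes the cell death inducer NOXA, had 1.26, and Btg2, an antiproliferative gene that is also on the immediate early list, 1.19. Plk2 and Plk3 had 0.91 and 0.78 and were not called. The p53 targets Ccng1, Bax, Sesn1, Aen and Phlda3 had median log2 ratios of -0.02, -0.07, -0.08, 0.08 and 0.04. Of 14 tested, 3 were called, where 0.532% of all tested genes were called higher, and the median was 0.33.

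**Figure D4:**
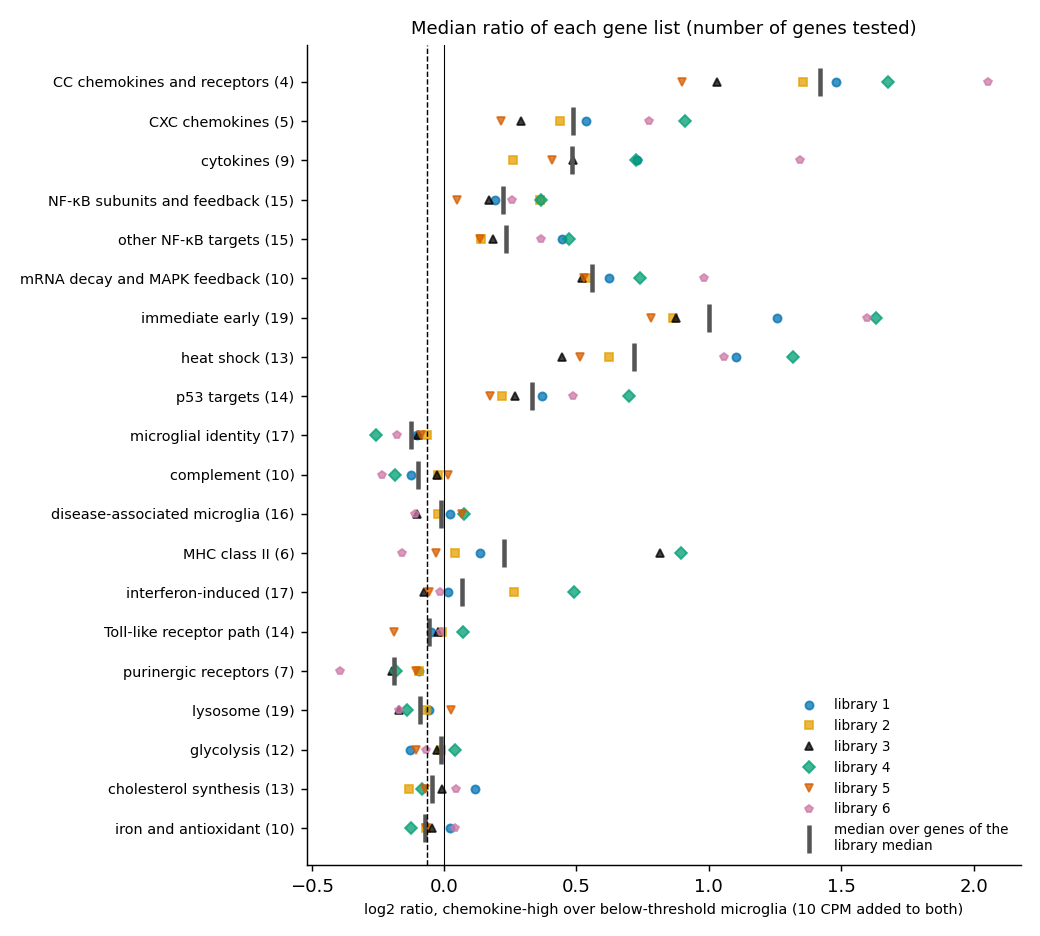
Median log2 ratio of chemokine-high over below-threshold microglia for 20 gene lists, with the number of genes tested in brackets. Coloured symbols give the median in each of the 6 libraries, grey bars the median over genes of the library median, and the dashed line the median of all genes at -0.06. Immediate early genes stand at 1.00 and microglial identity at -0.13.

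Microglial identity genes had ratios slightly below 0, and none passed the rule. Of 17 tested, 10 were below 0 in all 6 libraries, 0 were above 0 in all, and 0 were called. Of all tested genes, 14.7% were below 0 and 4.88% above 0 in all libraries. The list's median was -0.13, against -0.06 for all genes, so the difference was small. Slc2a5, a fructose transporter, had -0.29 (-0.47 to -0.15), and P2ry13, an ADP receptor of resting microglia, -0.27 (-0.94 to -0.06). P2ry13 stood at 268, 349, 194, 102, 227 and 141 CPM in chemokine-high microglia and 344, 365, 231, 204, 246 and 177 CPM below the threshold. Trem2, a lipid receptor, had -0.22, Cx3cr1 -0.15 and Csf1r, the growth factor receptor on which microglia depend, -0.13. Sall1 had 0.01. The purinergic receptors as a list had 5 of 7 below 0 in all libraries, with a median of -0.19.

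Lists of other microglial states differed little in their medians. Of 16 tested genes of disease-associated microglia, 0 were called and the median was -0.01, against -0.06 for all genes. Of all 7700 tested genes, 0.532% were called higher and 0% lower, so 0 called in a list of this size says little about it. Ch25h, which makes the oxysterol 25-hydroxycholesterol, was the exception in size, with 912, 1053, 1304, 899, 900.0 and 1460.0 CPM in chemokine-high cells and 407, 647, 805, 435, 673 and 643 CPM below the threshold and a log2 ratio of 0.86, above 0 in all libraries. Of 10 tested complement genes 0 were called, and C1qa, C1qb and C1qc, the subunits of C1q, had -0.12, -0.21 and -0.18. Of 17 interferon-induced genes, 1 was called, Irf1 at 1.04, and the median was 0.07. Ifit2 had 0.65 and was above 0 in all libraries, while Mx1, Irf7 and Oasl2 had 0.12, 0.08 and -0.05. Toll-like receptor path genes had 0 called and a median of -0.06. Tlr4, the endotoxin receptor, had -0.24 and was below 0 in all libraries, and the kinase Map3k8, 0.63, was above 0 in all.

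MHC class II genes, which present antigen, differed between libraries. Cd74, the invariant chain, stood at 415, 840.2, 732, 533, 635 and 621 CPM in chemokine-high microglia and 245, 680.1, 426, 254, 642 and 571 CPM below the threshold, a median log2 ratio of 0.52 (-0.02 to 1.04). The list's median was 0.89 in library 4 and 0.81 in library 3, and between -0.16 and 0.14 in the others. The difference between libraries was not tested. Lysosome, glycolysis, cholesterol synthesis and iron and antioxidant genes had medians of -0.09, -0.01, -0.05 and -0.07, with 0 of 54 tested genes called. Of all tested genes, 0.532% were called higher and 0% lower.

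Markers of most other cell types were no higher in the chemokine-high cells. The 10 astrocyte markers not used by the rule summed to 879.9 to 2595 CPM in chemokine-high microglia and 989 to 3007 CPM below the threshold, and were higher in the chemokine-high cells in 0 of 6 libraries. The 10 oligodendrocyte markers summed to 158 to 506 CPM in chemokine-high cells and 196 to 756 CPM below, also higher in 0 of 6. The 10 border macrophage markers summed to 116 to 464 CPM in chemokine-high cells and 122 to 546 CPM below, higher in 1 of 6. The 10 neutrophil markers summed to 41.5 to 94.4 CPM in chemokine-high cells and 40.0 to 101 CPM below, higher in 3 of 6. The median log2 ratio of the 2 neutrophil markers that could be tested was 0.91 in library 2 and -0.71 in library 4, and Mmp9, Ngp and Ltf were at 0 in the chemokine-high cells. The 9 measured monocyte markers summed to 201 to 299.8 CPM in chemokine-high cells and 229 to 326 CPM below, higher in 2 of 6. Markers of T and natural killer cells summed to 1.84 to 24.1 CPM in chemokine-high cells and 8.07 to 54.0 CPM below, higher in 1 of 6, and those of B cells to 0 to 12.6 CPM in chemokine-high cells and 0.736 to 6.18 CPM below, higher in 4 of 6. Markers of oligodendrocyte precursors (31.1 to 87.7 CPM in chemokine-high cells) and of vessels (14.7 to 39.0 CPM) were higher in 0 of 6 libraries, those of neurons (2.31 to 16.1 CPM) in 1 and those of red cells (1.39 to 27.7 CPM) in 2. Kdr and Acta2, of vessels, were at 0 in the chemokine-high cells. With 18731070 UMIs in the chemokine-high cells, a count of 0 allows up to 0.160 CPM. Of the genes of these lists, 0 were called in either direction, where 0.532% of all tested genes were called higher and 0% lower.

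Across gated microglia of library 3, 17 of 32 other genes followed were higher at each step of the content of the 3 genes. The 32 were picked for this description, and the share of all tested genes that rise in this way was not computed. The count thus describes these genes only. Each cell was thinned to 1000 UMIs, grouped by its thinned UMIs of Tnf, Cxcl2 and Ccl2, and the other genes were summed over all its UMIs. In library 3, Cd83 was at 655 CPM in cells with 0 such UMIs, 1032 with 1, 1232 with 2, 1461 with 3, 1991 with 4 to 5 and 2516 with 6 or more. Ccl3 went through 2089.7, 2977, 3610.5, 4108, 4535 and 5419 CPM over the same steps, and Il1b through 81.1, 189.9, 251, 317, 350.4 and 526 CPM. Each of these was higher at every step than at the one before. Fos went through 3765, 5156, 5866, 6558, 7032 and 8063 CPM, and Nfkbia through 2025, 2843, 3232, 3625, 4069 and 4573 CPM. Other inflammatory genes were lower at 1 or more of the steps. Il1a went through 42.6, 61.3, 86.5, 109.9, 107 and 137 CPM and Il6 through 61.7, 80.9, 76.1, 98.7, 82.0 and 105 CPM.

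In the sum of the other 5 libraries, Cd83 and Il1b were also higher at every step. Cd83 was at 264, 392.5, 510.2, 770.3, 953 and 1522 CPM and Il1b at 33.9, 78.7, 151, 209, 385 and 817 CPM over the same steps. The last step held only 62 cells there, and the mix of libraries changes from step to step. At 6 or more, only library 6 of these had at least 20 cells, with 3017 CPM of Cd83 and 1764 CPM of Il1b. By single library the rise was not always steady. Il1b in library 1 was at 121 CPM with 2 such UMIs and 44.2 CPM with 3. In library 5, Il1b was at 111 CPM with 1 and 43.5 CPM with 2, and Cd83 at 349 and 336 CPM. Libraries 2, 4 and 6 rose for both genes over the steps at which they had at least 20 cells. Among identity genes, P2ry13 in library 3 was at 232 CPM with 0 such UMIs and 170.2 CPM with 6 or more, Cx3cr1 at 2694 and 2289 CPM, and Sall1 at 223 and 220.0 CPM. In library 3 and in the sum of the others, Cd83 and Il1b thus differed over the whole range. In library 3, P2ry13 and Cx3cr1 were somewhat lower at the upper end and Sall1 was at nearly the same level.

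**Figure D5:**
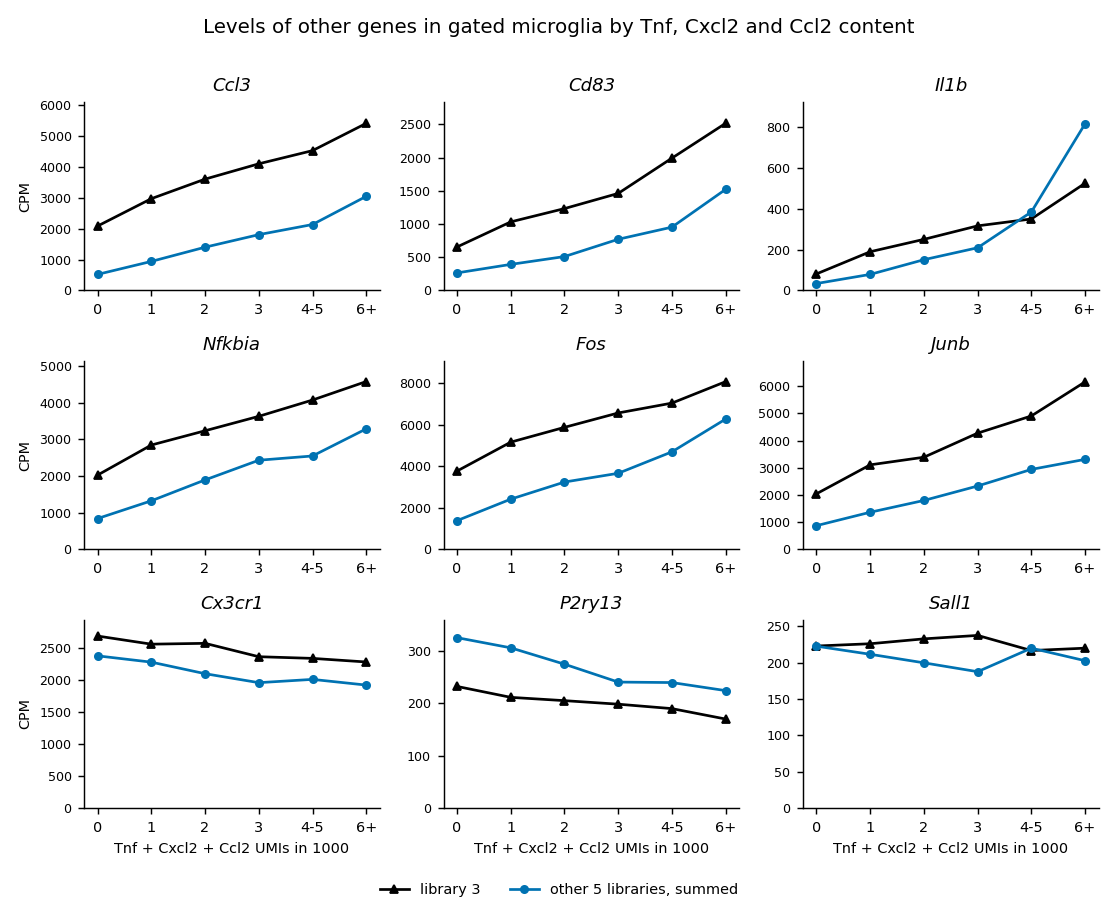
CPM of 9 genes in gated microglia grouped by their UMIs of Tnf, Cxcl2 and Ccl2 after thinning to 1000 UMIs, in library 3 (triangles) and in the sum of the other 5 libraries (circles). Cd83 in library 3 is at 655 CPM at 0 UMIs and 2516 CPM at 6 or more, while Sall1 stays at 223 and 220.0 CPM.

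Few other genes were called between members led by different genes of the 3. Members were split by which gene had the most UMIs, and libraries with at least 20 cells on both sides were compared by the rule used above. Libraries 4, 5 and 6 had only 20, 45 and 50 Tnf-led cells. Their Cxcl2-led cells numbered 28, 52 and 45, which limits what could be called. In the 1122 Cxcl2-led against the 1310 Tnf-led cells, over 6 libraries, 1 of 7700 genes (0.013%) was called higher, Cxcl1, at a median log2 ratio of 2.23. Cxcl1 stood at 67.2, 58.1, 108, 371, 71.7 and 256 CPM in Cxcl2-led cells of libraries 1 to 6, against 0.944, 0.778, 31.2, 33.5, 13.4 and 78.6 CPM in Tnf-led cells. The 583 Ccl2-led cells, in libraries 1, 2, 3 and 5, had 4 genes called lower than in Tnf-led cells (0.0519%) and 3 called lower than in Cxcl2-led cells (0.039%). Cxcl10 was among them both times, at a median log2 ratio of -1.49 in both comparisons. It stood at 45.8, 113, 47.3 and 12.3 CPM in Ccl2-led cells of libraries 1, 2, 3 and 5. Tnf-led cells held 81.2, 589, 71.4 and 141 CPM, and Cxcl2-led cells 69.7, 365, 139 and 81.5 CPM. Library 3 held 453 of the 583 Ccl2-led cells and library 5 only 20. Few members of any library had a Cxcl10 UMI, as given above. Ccl7, a neighbour of Ccl2 that also draws monocytes, was too low to be tested and stood at 76.7 CPM in Ccl2-led cells, against 3.32 CPM in Cxcl2-led and 5.27 CPM in Tnf-led cells. By library its level in Ccl2-led cells was 65.5, 42.4, 89.96 and 0 CPM in libraries 1, 2, 3 and 5, and Ccl7 UMIs were found in only 7, 4 and 49 chemokine-high cells of libraries 1 to 3. Ccl2 and Ccl7, and likewise Cxcl2 and Cxcl1, are related in sequence and could have shared reads.

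Barcodes with at least 2 UMIs of Clec7a, which the rule leaves out, had a different balance of the same chemokines. Clec7a encodes dectin-1, a receptor of activated microglia and other macrophages. With the same limits on mitochondrial share, depth, astrocyte and cycling genes and chemokine content, but no minimum of P2ry12 and Tmem119, 1749 such barcodes were chemokine high, 33, 186, 596 and 927 of them in libraries 3, 4, 5 and 6. In libraries 3 to 6, Cxcl2 stood at 1617, 1472, 1232 and 1753 CPM in chemokine-high microglia, against 8042, 3796, 3464 and 6279 CPM in the chemokine-high Clec7a barcodes. Tnf stood at 1036, 673, 757 and 1256 CPM in chemokine-high microglia, against 286, 426, 309.5 and 344 CPM in the Clec7a barcodes. Ccl2 stood at 789, 136, 388 and 169.8 CPM in chemokine-high microglia, against 108, 53.8, 42.5 and 18.0 CPM in the Clec7a barcodes. The chemokine-high microglia thus held less Cxcl2 and more Tnf and Ccl2 in each of the 4 libraries. For Il1a the levels were 105, 148, 127 and 256 CPM in chemokine-high microglia, against 59.1, 20.6, 8.51 and 10.7 CPM in the Clec7a barcodes. Il1b stood at 349.7, 209, 149 and 805 CPM in chemokine-high microglia, against 507, 761, 536 and 1148 CPM in the Clec7a barcodes, and Cxcl1 at 58.6, 234, 45.0 and 156 CPM, against 1773, 1567, 709 and 1739.9 CPM. Il1a was thus higher, and Il1b and Cxcl1 were lower, in the chemokine-high microglia of each of the 4 libraries. These levels follow in part from the selection on a sum of 3 genes, and no test was made. Within the Clec7a barcodes, genes named above also differed by chemokine content. In libraries 3 to 6 the log2 ratio of high over below was 1.94, 1.27, 1.37 and 2.38 for Cd83. For Fos it was 0.71, 0.74, 0.33 and 1.49, and for Il1b -0.51, 1.41, 1.43 and 2.93. The chemokine-high share was 55.9%, 17.9%, 26.1% and 43.7%, again highest in libraries 3 and 6. Library 3 held only 33 and 26 such barcodes.

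Outside the lists, 5 genes with a symbol were called higher. Csrnp1, a nuclear protein induced by axin, had 1.32, and Nfil3, a transcription factor of immune cells, 1.30. Olr1, which encodes the oxidized lipoprotein receptor LOX-1, stood at 67.9 to 254 CPM in chemokine-high microglia and 35.9 to 67.5 CPM below the threshold, with 1.18. Phlda1 had 1.14, and Zfand2a, a stress-induced zinc finger protein, 1.03. All 5 were above 0 in every library.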

How the data were processed

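Whole-number UMI counts for genes and cell barcodes were deposited by the authors, and per the file headers the matrix was written by Cell Ranger 7.0.0. The labels name the mouse build mm10, while the gene identifiers are rat Ensembl identifiers. The sources used here give neither the counting settings nor the annotation version. Gene symbols were those of the deposited table, and a gene without a unique symbol kept its identifier. Counts were summed per library and class and scaled to CPM (counts per 1000000 UMIs). Genes with at least 10 CPM over both classes were tested, leaving out the genes of the selection rule, and log2 ratios had 10 CPM added. Named are the genes of the selection rule and markers, up to 6 genes with the largest absolute median ratio in each inflammation, stress and myeloid list, and called genes outside the lists. Further genes are named as list members whose small ratios complete a count, or after their values were seen (the split by leading gene, the steps of content, the Clec7a comparison and the closing observations). The members and the 31 gene lists were chosen with earlier results of these data known. The calling steps were tested on simulated data. No library could be assigned to a labelled rat, so no test of irradiation was made. Free RNA was not removed. Work used pandas 2.3.3, NumPy 2.4.6 and SciPy 1.17.1 on Python 3.11.15, with plots in matplotlib 3.10.9.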

Additional observations from a re-analysis of the deposited data

How the results depend on the processing

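No paired analysis was possible because the libraries could not be tied to the labelled samples. The share of chemokine-high cells was 14.4% and moved to 23.7% at 0.5 per 1000 UMIs, 7.56% at 2 per 1000, 8.07% without Tnf in the selection, 9.96% without Cxcl2, 11.9% without Ccl2, 15.2% at a mitochondrial limit of 10%, 23.7% with cells thinned to 1000 UMIs and 13.7% without the 8% of barcodes with the most UMIs. Leaving out each library in turn gave 6.47% (without library 3) to 18.4%. The count of higher genes was 41 and moved to 62 at 2 per 1000, 10 with thinned cells and 78 against microglia with 0 UMIs of the 3 genes. It was 28 to 57 when each library was left out, 28 with libraries of at least 100 cells, 53 with ratios centred on the median of all genes and 32 to 58 under the other settings. The 41 genes stayed above 0 in every library compared under all settings except the selection without Cxcl2, which left 38. Lower genes numbered 0 and became 2 at 2 per 1000 (Apod among them), 2 with 1 CPM added (Ccl5 and Stmn4), 1 with cells matched on UMIs (Ccl5) and 0 to 1 when each library was left out (Apod, without library 6). The causes were not tested. Of the named genes' ratios under the alternatives, 36 moved by more than the spread over libraries and 2238 did not, and 0 of the called genes changed the sign of their median. Of 27 list medians, 17 kept their sign under all alternatives and the other 10 changed it under at least 1, MHC class II among them, with values up to 0.47. Chemokine-high cells numbered 52 in library 4 and 101 in library 6, which limits the values of low genes there. Libraries could not be checked against replicates, and cells of several types in 1 droplet were not called.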

Other observations

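Some chemokine transcripts were held by very few members. Ccl12, a further ligand of CCR2 known from the mouse, stood at 104 CPM in chemokine-high microglia of library 2 and at 0 to 11.01 CPM in the other libraries, against 0.0830 to 2.87 CPM below the threshold. The 240 Ccl12 UMIs of library 2 came from 5 of its 364 members. Cxcl10 in library 2 stood at 442.5 CPM in chemokine-high cells and 56.8 CPM below the threshold, with UMIs in 41 members. These genes were chosen after their values were seen.

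Some of the genes with the lowest ratios were also chosen after their values were seen. Apod, a gene of oligodendrocytes, had a median log2 ratio of -0.99 but was above 0 in 1 library. Luc7l3, Pnisr and Pnn, which encode proteins of RNA splicing, had -0.61, -0.57 and -0.51 and were below 0 in all 6 libraries. Luc7l3 stood at 134, 189, 73.7, 173, 147 and 115 CPM in chemokine-high microglia of libraries 1 to 6, against 216, 252, 100.4, 289, 254 and 175 CPM below the threshold. None of these 4 genes passed the 2-fold limit.

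A few genes separated the libraries rather than the classes. Lgals3, which encodes galectin-3, stood at 0.927, 0.435, 3.14, 146, 62.3 and 127 CPM in chemokine-high microglia of libraries 1 to 6, and at 0.430, 0.469, 1.49, 62.0, 73.9 and 105 CPM below the threshold. Cdkn1a and the small number of gated microglia set libraries 4, 5 and 6 apart from libraries 1, 2 and 3 in the same way, while the share of chemokine-high cells did not, being highest in libraries 3 and 6. No group was assigned from these values.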
